A study of Mus musculus with 7 samples.

Results

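Genes for variant and linker histones were followed through erythroid differentiation with and without zinc restriction. They were 10 genes, taken by name from the 55367 gene symbols of each library: H2afx, H2afz, H2afv, H2afy and H2afj (H2A variants), H3f3a, H3f3b and Cenpa (H3 variants), and H1f0 and H1fx (linker histones). The rule that names them uses no measured value, but the genes were chosen with earlier results of these data known. G1E-ER4 is an immortalised mouse cell line of the erythroid lineage without functional GATA1, into which a hybrid of GATA1 and the hormone-binding part of the estrogen receptor was introduced, so that estradiol starts maturation. The 3 DTPA libraries came from cells kept for 24 h in 100 nM β-estradiol with 50 µM DTPA, a chelator that binds zinc, present from the start. The 3 control libraries came from cells given 100 nM β-estradiol for 24 h without the chelator, and 1 library came from undifferentiated cells at 0 h, which had no replicate. All cultures were of the same line and medium, which held erythropoietin and Kit ligand, so every group is a model of 1 cell line whose maturation depends on the introduced fusion protein.

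The 10 erythroid marker genes were all detected, and their summed level was 63673 to 81783 TPM in DTPA libraries, 54429 to 58607 TPM in controls and 13141 TPM at 0 h. Of the markers of other blood cells, 3 of 6 megakaryocyte, 2 of 6 myeloid and mast cell and 3 of 4 lymphoid genes were listed at 0 in every library, and none of those lists summed to more than 14.4 TPM in a library. TPM is a transcript level: reads per base of transcript, set to an equal total for every library. The depth estimated from the low values was 19.9 to 21.3 M assigned reads in DTPA libraries, 17.8 to 18.7 M in controls and 17.7 M at 0 h. The part of these marker and depth differences in the results was not tested. In bulk RNA, fewer cells of a type and less RNA per cell cannot be told apart.

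In the DTPA libraries, transcripts for the centromeric histone CENP-A and for H2A.Z (H2afz) stood at 0.461 and 0.483 times the control level, on the scale of TPM + 1. Those for H2A.X, the second H2A.Z gene H2afv and the H3.3 gene H3f3a were lower by a smaller amount. The macroH2A gene H2afy stood, on the same scale, at 0.105 times the 0 h level under DTPA and at 0.119 times that level in controls, and its DTPA and control levels at 24 h were not separated by the test. The linker histone genes H1f0 and H1fx were listed at 0 throughout. The cluster-encoded linker histone gene H1f2 was higher under DTPA.

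Most histone protein is made in S phase from intronless cluster genes, whose mRNAs end in a conserved stem-loop in place of a poly(A) tail. Variant histones are made from separate genes, mostly with introns and polyadenylated mRNAs. Several of them can enter chromatin outside replication: H3.3 at active genes, H2A.Z around promoters, CENP-A at centromeres, macroH2A in silenced chromatin. Linker histones bind where DNA enters and leaves the nucleosome and compact it. In the erythroid lineage chromatin condenses strongly before the nucleus is lost, and cell divisions become limited as cells mature.

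H3.3 and H2A.Z are each encoded by a pair of genes on different chromosomes, and the sequences below show bases by which the genes of a pair differ. The coding regions of H3f3a (chr1) and H3f3b (chr11) are 411 bases long and 76.9% identical. Their 95 differing bases lie in 83 codons, and none of these changes the amino acid. Bases 196 to 255 of both coding regions are shown from the GENCODE M21 transcripts, with capitals marking the 18 differing bases.
H3f3a: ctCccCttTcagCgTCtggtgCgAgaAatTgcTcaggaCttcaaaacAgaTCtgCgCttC
H3f3b: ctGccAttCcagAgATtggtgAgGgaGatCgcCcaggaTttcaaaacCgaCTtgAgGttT
The H2afz (chr3) and H2afv (chr11) coding regions of 387 bases are 79.1% identical, with 71 synonymous codon differences and 3 that change the residue. In bases 67 to 126, capitals again mark the differing bases, 16 in all, with 1 codon changing the residue.
H2afz: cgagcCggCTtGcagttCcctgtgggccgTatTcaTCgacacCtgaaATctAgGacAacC
H2afv: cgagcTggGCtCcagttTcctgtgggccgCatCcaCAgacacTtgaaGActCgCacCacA
Each stretch was chosen as the 60 bases with the most codons that change the residue, then the most differing bases. It need not be typical of the coding region. Within each pair the differing bases are spread over the whole stretch shown, and each gene has its own row in the deposited tables.

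H2afx was the only one of the 10 genes with the histone stem-loop in the 3′ UTR of an annotated coding transcript. The last 50 bases of that transcript also hold the letters of a poly(A) signal, AATAAA or ATTAAA. The loop is shown because the libraries were made from polyadenylated RNA, so that H2afx mRNA ending at the stem-loop would not be taken up. The 16-base stem-loop is in capitals, beside that of the cluster linker histone gene H1f2 (Hist1h1c).
H2afx (chr9): acaaaGGCCCTTTTAAGGGCCaccac
H1f2 (chr13): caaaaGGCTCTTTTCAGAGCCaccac
A stem-loop of this form was found in 46 of 67 cluster histone genes (68.7%), against 0.239% of 21745 protein-coding genes. The letters AATAAA or ATTAAA were present in the last 50 bases of at least 1 annotated transcript of every one of the 10 genes except H2afy. The single annotated coding transcript of H1f2 holds them there as well. These are letter matches, and the share of all genes with such a match is not given here.

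The promoters of the H2A.Z genes are shown because both fell under DTPA, by different amounts. The 250 bases before the RefSeq transcript start are given in the direction of transcription, on GRCm38.p6, with capitals marking CCAAT (or its reverse complement ATTGG) and TTTGAA (or TTCAAA).
H2afz (chr3:137864237-137864486, plus strand): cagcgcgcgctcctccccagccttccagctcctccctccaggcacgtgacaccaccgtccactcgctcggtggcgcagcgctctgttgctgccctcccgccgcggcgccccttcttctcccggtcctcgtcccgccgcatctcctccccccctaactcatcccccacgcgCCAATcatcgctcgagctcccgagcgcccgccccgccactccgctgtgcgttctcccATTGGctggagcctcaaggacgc
H2afv (chr11:6444444-6444693, minus strand): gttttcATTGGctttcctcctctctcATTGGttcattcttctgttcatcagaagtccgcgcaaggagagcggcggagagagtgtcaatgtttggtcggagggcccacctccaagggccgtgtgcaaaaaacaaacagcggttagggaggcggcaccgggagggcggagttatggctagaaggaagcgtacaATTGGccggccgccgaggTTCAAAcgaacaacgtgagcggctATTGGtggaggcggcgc
H2afz held CCAAT at 80 and 23 bases before the start, and H2afv at 244, 224, 59 and 17 bases before it. H2afv also held TTTGAA, at 41 bases before the start. Among the 9 genes with a RefSeq promoter entry, 6 held CCAAT on either strand (H2afz, H2afv, H2afj, H3f3a, H3f3b and Cenpa), a motif found in 33.9% of 32851 mouse promoters of the same length. TTTGAA occurred in 16% of all those promoters. These are letter matches and not measured binding.

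CENP-A replaces H3 at centromeres and marks where the kinetochore forms, and its transcript is known to accumulate late in the cell cycle. Cenpa (chr5:30666777-30674830, plus strand, GRCm38) stood at 43.8, 42.2 and 43.8 TPM in the DTPA libraries, against 94.8, 91.1 and 99.1 TPM in the controls and 47.7 TPM at 0 h. The DTPA values lay close together and all below the controls, while the 0 h value lay near the DTPA values. Cenpa averaged 43.3 ± 0.924 TPM under DTPA and 95 ± 4.04 TPM in controls (SD, n = 3 each), a log2 fold change of -1.12 ± 0.05 (SE; limma, Benjamini-Hochberg adjusted p = 1.136e-06 over 11147 genes). All log2 fold changes here are on the log2(TPM + 1) scale. P-values measure the spread between libraries that the labels call biological replicates.

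H2A.Z is exchanged into nucleosomes beside promoters. H2afz (chr3:137864487-137866922, plus strand) had 339, 339 and 350 TPM in DTPA libraries, against 737, 752 and 646 TPM in controls and 884 TPM at 0 h. All DTPA libraries were below all controls, the controls were below the 0 h library, and control replicate 3 was the lowest control. The log2 fold change between DTPA and control was -1.05 ± 0.06 (limma, adjusted p = 5.648e-06). The second H2A.Z gene, H2afv (chr11:6427229-6444443, minus strand), had 150.5, 159 and 162 TPM in DTPA libraries, against 233, 223 and 207 TPM in controls and 85.0 TPM at 0 h. The order of the groups thus differed from that of H2afz: for H2afv the 0 h library was the lowest, and the DTPA libraries lay between it and the controls. H2afv fell by 0.49 ± 0.05 on the log2 scale under DTPA (limma, adjusted p = 0.0001525).

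H2A.X carries a tail serine that is phosphorylated around DNA breaks and recruits repair factors. H2afx (chr9:44334694-44336077, plus strand, a single exon) had 45.4, 47.5 and 46.4 TPM in DTPA libraries, against 83.7, 82.4 and 64.9 TPM in controls and 149 TPM at 0 h. The groups did not overlap, and control replicate 3 was again the lowest control. Under DTPA H2afx fell by 0.71 ± 0.09 on the log2 scale (limma, adjusted p = 0.0004566). Without control replicate 3 the log2 fold change was -0.83 for H2afx and -1.12 for H2afz.

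MacroH2A1 carries a large globular macro domain and is linked to gene silencing. H2afy (chr13:56073619-56136361, minus strand) had 7.54, 8.56 and 8.85 TPM in DTPA libraries, against 9.37, 10.1 and 8.99 TPM in controls and 87.2 TPM at 0 h. The 24 h libraries lay close together in both arms and far below the 0 h library. The difference between DTPA and control did not pass the test (log2 fold change -0.17 ± 0.08, limma, adjusted p = 0.119), although the highest DTPA library lay just under the lowest control. H2A.J is a mammalian H2A variant known from human fibroblasts to accumulate in senescence. H2afj (chr6:136808244-136810074, plus strand, a single exon) had 77.8, 78.1 and 69.1 TPM in DTPA libraries, against 61.2, 60.2 and 37.7 TPM in controls and 63.1 TPM at 0 h. The DTPA libraries were the highest, and control replicate 3 lay far below the other controls, which were close to the 0 h value. H2afj was the only gene of the 10 called higher under DTPA (log2 fold change 0.52 ± 0.17, limma, adjusted p = 0.0339). Without control replicate 3 its log2 fold change was 0.30 (limma, adjusted p = 0.008547), and without DTPA replicate 1 or DTPA replicate 2 the adjusted p was 0.08819 and 0.08346, above the threshold of 0.05. It also missed the threshold with no filter on low values (adjusted p = 0.09235) and with a variance that does not follow the mean (adjusted p = 0.06098).

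H3.3 is laid down independently of replication, at active genes and at silent repeats, and both of its genes encode the same protein. H3f3a (chr1:180800832-180813943, minus strand) had 652, 677 and 673 TPM in DTPA libraries, against 919, 948 and 906 TPM in controls and 527 TPM at 0 h. It was the most abundant of the 10 genes at 24 h, with the DTPA libraries between the 0 h library and the controls. H3f3a fell by 0.47 ± 0.04 on the log2 scale under DTPA (limma, adjusted p = 2.656e-05). Its exons share 160 bases with the antisense gene H3f3aos, which stood at 0.61 to 1.59 TPM, and 638 bases with the noncoding gene Gm17275 on the other strand, which was not analysed here. H3f3b (chr11:116021912-116027962, minus strand) had 275, 259 and 264 TPM in DTPA libraries, against 279, 327 and 294 TPM in controls and 606 TPM at 0 h. Here the 0 h library was the highest and the arms at 24 h nearly touched. H3f3b was called lower under DTPA by a small margin (log2 fold change -0.17 ± 0.06, limma, adjusted p = 0.04403), and the call was lost in several alternatives. The adjusted p was 0.3968 with median-of-ratios scaling, 0.8988 with quantile normalization, 0.08382 without globin genes, 0.09217 with no filter on low values and 0.08626 without the variance trend. Leaving out single libraries gave 0.1185 (DTPA replicate 2), 0.1036 (DTPA replicate 3), 0.1177 (control replicate 2) and 0.07072 (control replicate 3).

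The linker histone H1.0, encoded by H1f0, is known to accumulate in differentiated and resting cells, and H1.X, encoded by H1fx, is a divergent linker histone found in many tissues. Both H1f0 (chr15:79028450-79030504, plus strand) and H1fx (chr6:87980421-87981637, minus strand) were listed at 0 TPM in all 7 libraries. The exon of H1f0 shares 163 bases with the antisense gene Gm49544, and that of H1fx shares 213 bases with the antisense gene Gm5577, both also listed at 0. The strand setting of the counting is not given in the sources used here, and whether the counting gave these zeros was not tested, so no upper limit is set on either level. Each has a single exon, as do H2afx and H2afj, which were detected. No fold change was computed for either gene.

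**Figure D1:**
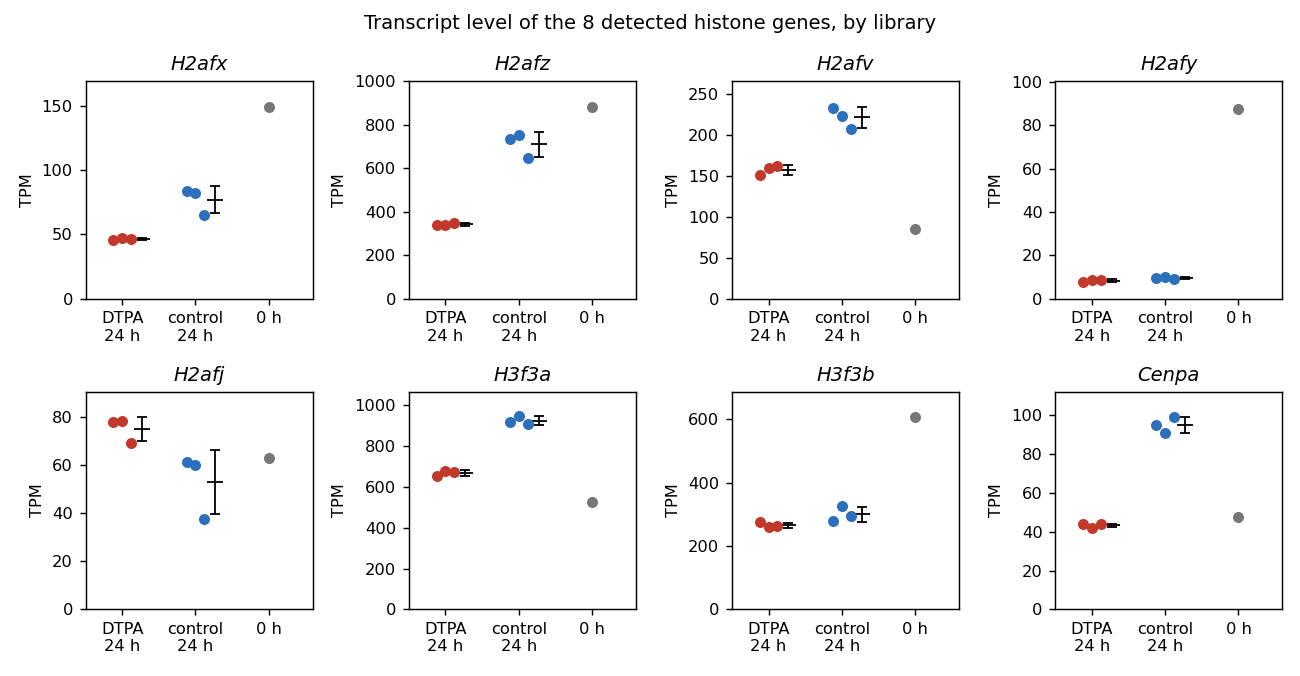
Transcript level in TPM (vertical axes, starting at 0) of the 8 detected genes in each library of the DTPA, control and 0 h groups; points are libraries, and bars give the mean ± SD of 3 libraries. Cenpa, H2afz, H2afv, H2afx and H3f3a have all DTPA points well below the control points, H2afj has them above, and H2afy has its 0 h library at 87.2 TPM with every 24 h library at or below 10.12 TPM.

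Of the 8 genes tested between DTPA and control, 6 were called lower, where 36.4% of all 11147 tested genes were lower, and 1 was called higher, where 21.7% were higher. The libraries of the arms did not overlap for any of the 8 genes, H2afy included, with DTPA lower for 7 and higher for 1. Over all tested genes the libraries did not overlap for 65%, with DTPA lower for 40.3% and higher for 24.7%. The median log2 fold change was -0.48 for the 8 genes and -0.09 for all tested genes, which quantile normalization moved to 0.01. Calls in either direction covered 58.1% of all tested genes, so that 7 calls among 8 genes stand against a high background. The sizes set the genes apart from each other more than the calls did, with Cenpa and H2afz at 0.461 and 0.483 times and H3f3b and H2afy at 0.888 and 0.887 times the control level of TPM + 1.

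Differentiation itself was read by setting each arm at 24 h against the single 0 h library, which is shared by these comparisons and is assumed to vary like the other groups. A call here needs an adjusted p under 0.05 and a log2 fold change of at least 1 in size. In DTPA cells, 4 of the 8 tested genes were called lower (27.6% of 12016 tested genes were) and 0 were called higher (15.7% were), where 43.3% of all were called either way. At an unadjusted p under 0.05 (limma), 2 of the 8 genes, H2afv and H3f3a, lay above 0 h in DTPA cells, where 30.6% of all tested genes did, and 3 of the 8, H2afv, H3f3a and Cenpa, did in controls, where 31.5% of all did. In controls, 2 of the 8 genes were called lower (24.3% of 11906 tested genes were) and 1 was called higher (15.1% were), where 39.4% of all were called either way. The median log2 fold change against 0 h was -0.66 for the 8 genes under DTPA, beside -0.30 for all tested genes, and -0.30 for the 8 genes in controls, beside -0.22 for all. Median-of-ratios scaling moved the median of all genes to -0.05 under DTPA and to -0.06 in controls.

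H2afy had the largest difference from 0 h among the 8 genes in both arms, with a log2 fold change of -3.25 ± 0.11 under DTPA (limma, adjusted p = 2.283e-06) and -3.07 ± 0.11 in controls (limma, adjusted p = 3.627e-06). H3f3b was also lower than at 0 h in both, with a log2 fold change of -1.19 under DTPA (limma, adjusted p = 5.223e-05) and of -1.02 in controls (limma, adjusted p = 0.0001203). The H3f3b values sit close to the required size, and with median-of-ratios scaling they were -0.93 under DTPA and -0.86 in controls, short of it. Without globin genes the H3f3b value in controls was -0.96, and without control replicate 1 it was -0.97.

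H2afz and H2afx passed both limits against 0 h under DTPA and not in controls. H2afz differed from 0 h by -1.36 on the log2 scale under DTPA (limma, adjusted p = 2.733e-05) and by -0.32 in controls (limma, adjusted p = 0.01848), where median-of-ratios scaling gave -0.15 (limma, adjusted p = 0.2228) and a replicate block gave an adjusted p of 0.07337. H2afx differed by -1.66 under DTPA (limma, adjusted p = 9.938e-05) and by -0.95 in controls, where it crossed the limit of 1 in size without control replicate 1 (-1.015) or control replicate 2 (-1.004). The test of these differences between the arms is the DTPA against control comparison given above. H2afv had a value of 0.88 under DTPA, which became 1.14 with median-of-ratios scaling and 1.07 with quantile normalization, and it was called higher in controls (log2 fold change 1.37 ± 0.07, limma, adjusted p = 1.614e-05). Cenpa had -0.14 under DTPA and 0.98 in controls, just short of the required size. The DTPA value, which did not pass the test, was 0.12 with median-of-ratios scaling and 0.11 with quantile normalization. With median-of-ratios scaling, quantile normalization or without globin genes, the Cenpa value in controls passed it, at 1.13, 1.06 and 1.04, and without control replicate 2 it was 1.01. H3f3a stood at 0.34 under DTPA and 0.81 in controls (limma, adjusted p = 0.0006403 and 1.648e-05), both short only of the required size. H2afj stood at 0.24 under DTPA and -0.28 in controls, and neither H2afj value passed the test.

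**Figure D2:**
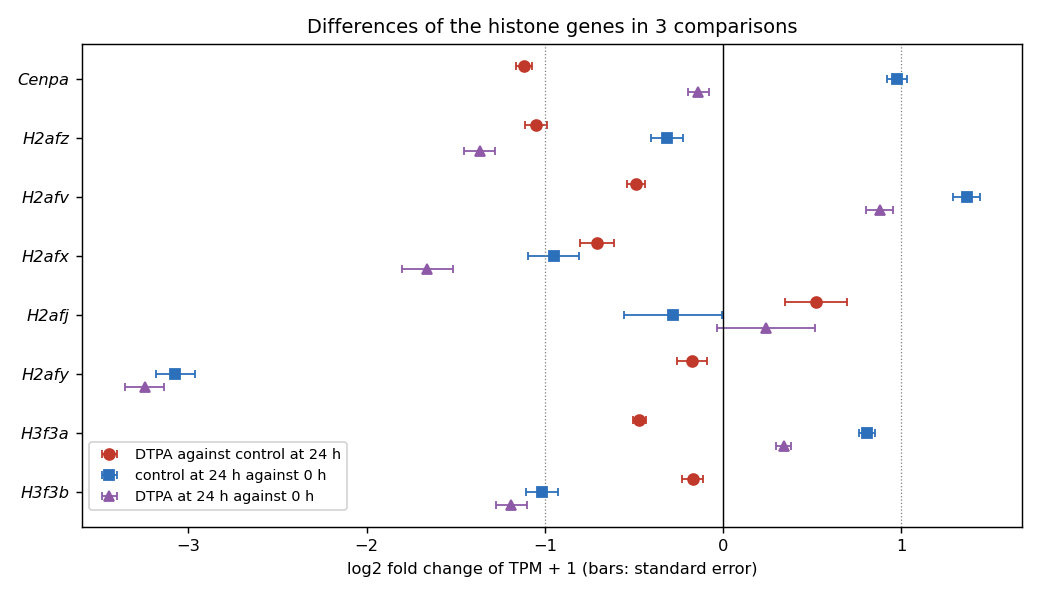
Log2 fold change of TPM + 1 (horizontal axis) for the 8 tested genes, with standard errors as bars: circles for DTPA against control, squares for control against 0 h and triangles for DTPA against 0 h, and dotted lines at a size of 1. H2afy lies beyond -3 in both comparisons with 0 h and near 0 between DTPA and control, while Cenpa lies near 1 for control against 0 h and near -1 for DTPA against control.

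The share of each gene within its pair separated the libraries of the arms without overlap. H3f3b made up 29.6, 27.7 and 28.2% of the summed H3.3 TPM in DTPA libraries, against 23.3, 25.6 and 24.5% in controls and 53.5% at 0 h. All DTPA libraries were above all controls, and the mean difference was 4.02 percentage points. The exact two-sided permutation test gave p = 0.1, the smallest value that 3 against 3 libraries allow. The summed level itself averaged 933 ± 5.65 TPM under DTPA and 1224 ± 43.7 TPM in controls (SD, n = 3 each), with 1133 TPM at 0 h. The sum at 0 h thus lay between the arms. By TPM, the larger part of it came from H3f3b in the single 0 h library and from H3f3a at 24 h. At 0 h the estimated reads were 10914 for H3f3a and 10664 for H3f3b, so the order there depends on the gene lengths used.

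H2afz made up 69.2, 68.1 and 68.4% of the summed H2A.Z TPM in DTPA libraries, against 76.0, 77.2 and 75.7% in controls and 91.2% at 0 h. The difference between DTPA and control was -7.72 percentage points, again without overlap, and the exact permutation p was 0.1, the smallest possible. The summed H2A.Z level was 489, 498 and 512 TPM in DTPA libraries, against 969, 974 and 854 TPM in controls and 969 TPM at 0 h. The controls at 24 h thus kept a summed level near that at 0 h with a larger part from H2afv, and every DTPA library had a lower sum than any of them.

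**Figure D3:**
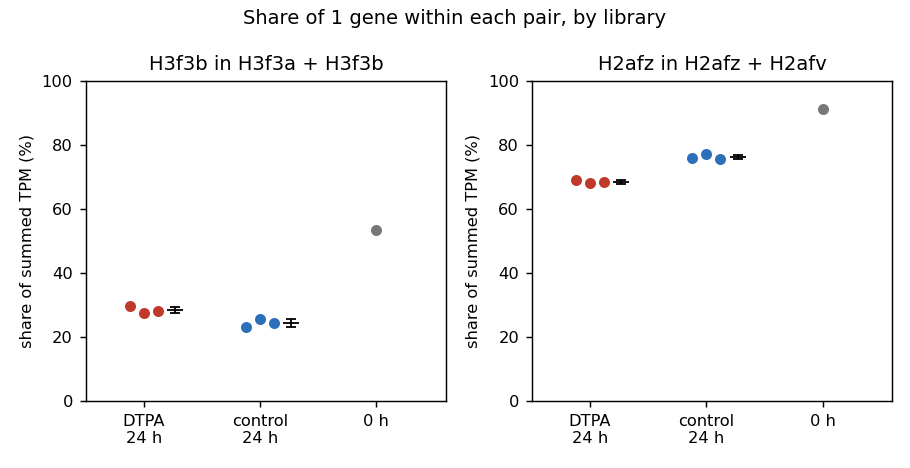
Share of the summed TPM (vertical axis, 0 to 100%) held by H3f3b in the H3.3 pair and by H2afz in the H2A.Z pair, in each library of the DTPA, control and 0 h groups; points are libraries and bars give the mean ± SD of 3. The H3f3b share is 27.7 to 29.6% under DTPA and 23.3 to 25.6% in controls, and the H2afz share is 68.1 to 69.2% under DTPA and 75.7 to 77.2% in controls.

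Processed pseudogenes carry near-copies of some of these transcripts. The H2afz pseudogene Gm8203 (chr6:116173737-116174123), identical over 387 bases, was listed at 116, 146 and 120 TPM in DTPA libraries, against 308, 293 and 229 TPM in controls and 350.2 TPM at 0 h, in the same order of groups as H2afz. Copies at 95% identity or more held 6.93 to 8.61% of the estimated reads of H2afz and its copies, 2.74 to 3.18% for H3f3a with 17 copies, 0.91 to 1.37% for H3f3b and 0.1 to 0.98% for H2afj. Whether the submitters' counting split or dropped such reads was not given in the sources used here. With the reads counted to the copies added, H2afz had a log2 fold change of -1.05 and H3f3a of -0.47 between DTPA and control, and no call of the 8 genes changed. Reads left uncounted because they match several places are not part of that addition, so it cannot show their effect.

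Genes that deposit or hold CENP-A were mostly lower under DTPA as well. Of 20 genes for CENP-A deposition and the inner kinetochore, 18 were lower under DTPA, where 36.4% of all tested genes were. Only 1 was higher, where 21.7% of all were, and 1 did not pass the test. The median log2 fold change was -1.30 against -0.09 over all tested genes. Hjurp, the chaperone that delivers CENP-A, averaged 14.8 ± 0.825 TPM under DTPA and 62.2 ± 3.13 TPM in controls (SD, n = 3 each; log2 fold change -2.00, limma, adjusted p = 2.703e-07). Cenpm, an inner kinetochore subunit, averaged 6.86 TPM under DTPA and 37.2 TPM in controls (log2 fold change -2.29). The higher gene was Cenpb, which binds centromeric satellite DNA (log2 fold change 0.26), and the gene that did not pass was Npm1, a nucleolar chaperone (-0.04).

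Of 16 tested genes for the exchange of H2A.Z, 10 were lower (36.4% of all tested were), 1 was higher (21.7%) and 5 did not pass. Their median log2 fold change was -0.27. Anp32e, the chaperone that removes H2A.Z from nucleosomes, averaged 87.6 ± 2.6 TPM under DTPA and 231 ± 5.65 TPM in controls (SD, n = 3 each; log2 fold change -1.39, limma, adjusted p = 2.293e-07). Ssrp1, a subunit of the histone chaperone FACT, had a log2 fold change of -1.05, and Ruvbl1, an ATPase of the exchange complexes, of -0.75. The higher gene was Nap1l1, a chaperone of H2A and H2B, at 0.48. With median-of-ratios scaling or quantile normalization 3 of these genes were called higher, and 2 without globin genes, and with quantile normalization 6 were called lower.

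Of 13 genes for H3.3 and H3 chaperones, 10 were lower (36.4% of all tested were), 1 was higher (21.7%) and 2 did not pass. Their median was -0.72. The largest differences in the list were those of Asf1b, Chaf1a and Chaf1b. Asf1b, a carrier of new H3 and H4, averaged 19.5 ± 2.15 TPM under DTPA and 75.5 ± 2.16 TPM in controls (SD, n = 3 each; log2 fold change -1.90, limma, adjusted p = 1.157e-06), and Chaf1a and Chaf1b, subunits of the assembly factor CAF-1, had -1.75 and -1.49. Hira, which deposits H3.3 outside replication, had -0.41 (limma, adjusted p = 0.01612), and Daxx and Atrx, which deposit it at repeats, had -0.12 and 0.02, neither passing. The higher gene was Ubn2, a HIRA partner, at 0.24, a call lost without DTPA replicate 3 or without control replicate 2.

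Of 16 genes of the signalling that acts on H2A.X, 9 were lower (36.4% of all tested were), 2 were higher (21.7%) and 5 did not pass. Their median was -0.40. Brca1, a repair protein, averaged 6.82 ± 0.28 TPM under DTPA and 36.9 ± 1.9 TPM in controls (SD, n = 3 each; log2 fold change -2.28, limma, adjusted p = 1.912e-07). The checkpoint kinase gene Chek1 had -1.62 and Mdc1, which reads phosphorylated H2A.X, had -1.51. The kinase gene Atm had 0.06, which did not pass, and the higher genes were Prkdc, another H2A.X kinase, and Nbn, at 0.23 each. The count of higher genes was 0 without DTPA replicate 1 and 1 without DTPA replicate 3, control replicate 1 or control replicate 2.

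The next list held 11 tested genes for high mobility group (HMG) proteins and other proteins that compete or interact with linker histones. In it 10 were lower (36.4% of all tested genes were) and 1, Hmga1, did not pass, with a median of -1.02. The 10 include Hmgn2-ps1, whose symbol marks a pseudogene, matched from the name Hmgn4. Hmgn2-ps1 had 0.5 to 2.95 TPM in the 24 h libraries, and its own value is that median. Hmgb2 averaged 45.5 ± 1.82 TPM under DTPA and 165 ± 5.13 TPM in controls (SD, n = 3 each; log2 fold change -1.83, limma, adjusted p = 1.36e-07). The log2 fold change was -1.33 for Hmgb1 and -1.27 for Hmgb3, related DNA-bending proteins. Against 0 h, 10 of the 11 genes were lower in each arm, where 27.6% of all tested genes were under DTPA and 24.3% in controls. The medians were -2.91 under DTPA and -1.58 in controls, beside -0.30 and -0.22 for all tested genes. The control median is again the value of Hmgn2-ps1.

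**Figure D4:**
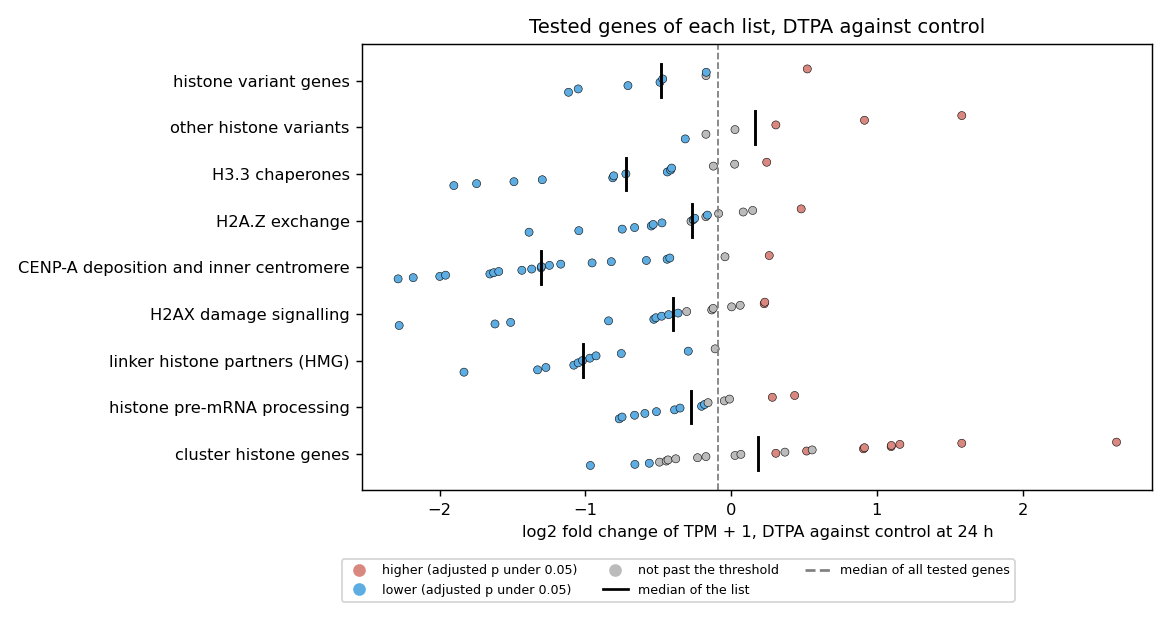
Log2 fold change of TPM + 1 between DTPA and control (horizontal axis) for every tested gene of each list, with the list median as a black bar and the median of all tested genes as a dashed line; colours show genes called higher, lower or not passing. The CENP-A list has its median at -1.30, and the cluster histone genes and other histone variants have theirs above 0, at 0.19 and 0.17.

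The cluster histone genes were set beside the variants because they supply the replication-coupled histones and the other linker histones. The libraries were made from polyadenylated RNA, so the levels given are of the polyadenylated part of their transcripts and not of all their mRNA. Of 70 cluster genes, 22 passed the filter on low values. Of these, 9 were higher under DTPA (21.7% of all tested genes were), 3 were lower (36.4%) and 10 did not pass. Their median was 0.19. The lower genes were H3c1, H2bc9 and Hist1h2bp, at -0.97, -0.66 and -0.56. Each of them stayed under 5 TPM in every library. So did H1f4, H2bc7 and H3c6 among the 9 higher genes, at no more than 2.3, 2.72 and 1.76 TPM. H1f4, H2bc7 and H3c6 averaged under 1 TPM in controls, and H3c1 and Hist1h2bp did so under DTPA. Each of them thus passed the filter of 1 TPM through the group where it was higher. The counts of higher and lower cluster genes are therefore not independent of the filter. With a filter of 5 TPM, only 5 cluster genes were left to test, and all 5 were called higher. H1f2, H2bc4, H3c4 and Hist1h2al are among the 9, and H4c9, which did not pass as reported, is the fifth (log2 fold change 0.37, limma, adjusted p = 0.03647). H3c4 averaged 4.66 TPM and Hist1h2al 1.653 TPM in controls, so both passed this filter through their DTPA libraries. The count of 5 is thus not independent of the direction of the calls. Only 1 cluster gene was called lower without DTPA replicate 2 or without any 1 of the 3 controls.

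H1f2, which encodes the linker histone H1.2, had 147, 162 and 151 TPM in DTPA libraries, against 54.2, 51.7 and 46.0 TPM in controls and 21.8 TPM at 0 h. It was the highest of the linker histone genes in every group, and the groups did not overlap. H1f2 rose under DTPA, with a log2 fold change of 1.58 ± 0.07 (limma, adjusted p = 1.411e-06). Against 0 h it was called higher in both arms, at 2.76 under DTPA and 1.18 in controls. H1f4, another linker histone gene of the cluster, had 2.3, 1.75 and 1.44 TPM in DTPA libraries, against 0.77, 1.07 and 1.06 TPM in controls and 0.7 TPM at 0 h. H1f1 had 0.58, 1.19 and 1.13 TPM in DTPA libraries, against 2.22, 1.62 and 1.15 TPM in controls, and did not pass the test (log2 fold change -0.43, limma, adjusted p = 0.1279). H2bc4 (Hist1h2bc), an H2B gene, averaged 51.5 ± 3.82 TPM under DTPA, 41.5 ± 3.64 TPM in controls (SD, n = 3 each) and 15.2 TPM at 0 h, with a log2 fold change of 0.31 between DTPA and control (limma, adjusted p = 0.01269). H3c4, an H3 gene, averaged 9.54 TPM under DTPA and 4.66 TPM in controls, a log2 fold change of 0.91. Hist1h2al, an H2A gene, had 15.2, 16.5 and 9.44 TPM in DTPA libraries, against 2.43, 2.53 and 0 TPM in controls and 1 TPM at 0 h. Every DTPA library was above every control, and the spread was wide in both arms (log2 fold change 2.64 ± 0.48, limma, adjusted p = 0.002208).

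Of 16 genes matched for other histone variants, which overlap the cluster genes, 6 were tested. Of these, 3 were higher under DTPA (H1f2, H2bc4 and H2aw), where 21.7% of all tested genes were. Another 1, H3f3c, was lower, where 36.4% of all were, and 2 did not pass. The median of the 6 was 0.17. H3f3c, annotated as a pseudogene, is 1 of the 17 copies of H3f3a counted above, 99.0% identical over 411 bases. It averaged 12.9 TPM under DTPA and 16.3 TPM in controls (log2 fold change -0.32, limma, adjusted p = 0.02983). That call was lost with no filter, with median-of-ratios scaling, with quantile normalization and without DTPA replicate 2, DTPA replicate 3, control replicate 1 or control replicate 3. The second macroH2A gene, Macroh2a2, was listed at 0 in all libraries.

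Of 14 genes that process histone pre-mRNA, 9 were lower (36.4% of all tested were), 2 were higher (21.7%) and 3 did not pass. Their median was -0.28. Slbp, which binds the stem-loop shown above, averaged 25.8 ± 1.36 TPM under DTPA and 41.3 ± 1.48 TPM in controls (SD, n = 3 each; log2 fold change -0.66, limma, adjusted p = 4.072e-05). Cstf2, a cleavage factor subunit, had -0.75 and Ncbp1, of the nuclear cap-binding complex, had -0.59. The higher genes were Mif4gd, a partner of Slbp in translation, at 0.44, and Cpsf2, of the cleavage complex, at 0.28. The levels of H1f2 and of Slbp thus moved in opposite directions between the arms. Whether the share of cluster transcripts that carry a poly(A) tail differed was not tested.

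**Figure D5:**
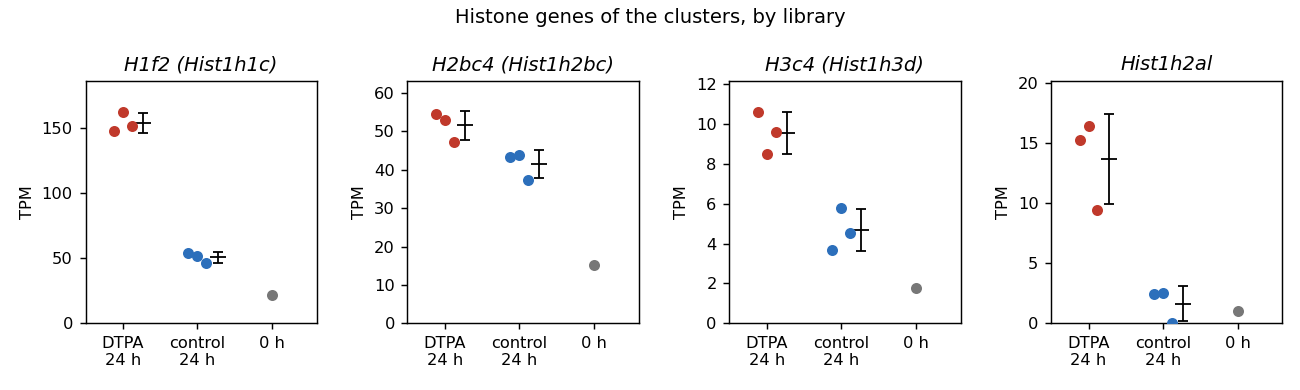
Transcript level in TPM (vertical axes, starting at 0) of 4 cluster histone genes in each library of the DTPA, control and 0 h groups; points are libraries and bars give the mean ± SD of 3 libraries. H1f2 lies at 147 to 162 TPM under DTPA, above 46.0 to 54.2 TPM in controls and 21.8 TPM at 0 h.

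The genes whose pattern over the 7 libraries came closest to a histone gene were found by the root mean square difference of their centred log2(TPM + 1) values, over 8872 genes. For Cenpa they were Ftsj1 (0.053), Camsap2 (0.0629) and Jpt1 (0.0798). Ftsj1 had 30.8, 30.5 and 30.9 TPM in DTPA libraries, against 66.6, 63.5 and 67.2 TPM in controls and 36.7 TPM at 0 h. For H2afz they included Yif1b (0.07) and Dazap1 (0.073), and for H2afx they were Hspbp1 (0.0713), Krtcap2 (0.0746) and Pebp1 (0.0873). Yif1b had 60.5, 66.0 and 62.0 TPM in DTPA libraries, against 130, 129 and 107 TPM in controls and 162 TPM at 0 h, with the same low control replicate 3 as H2afz. These likenesses describe the 7 libraries and share their scaling.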

How the data were processed

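Polyadenylated RNA of G1E-ER4 cells was sequenced in 7 libraries, made with a stranded Illumina TruSeq mRNA kit per the labels' protocols. The submitters' processing notes name Trimmomatic 0.33, FastQC, HISAT2 2.1.0, featureCounts, edgeR and the build mm10. Not given in the sources used here were the strand setting, annotation release, gene lengths and handling of reads with several matches. The authors deposited TPM, with 55487 rows per library. Values of 114 symbols found on several rows were summed, which left 55367 symbols, and 6 of the 10 genes were matched through RefSeq synonyms (H2ax, H2az1, H2az2, Macroh2a1, H2aj and H1f10 in the deposited tables).

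Tests were run in limma 3.58.1 (R 4.3.3); values were log2-transformed with a pseudocount of 1 TPM. The eBayes step had a variance trend, and tests were two-sided, adjusted by Benjamini-Hochberg over all tested genes at 0.05. DTPA against control used the 6 libraries at 24 h and the genes that reached 1 TPM in 3 or more of them. The comparisons with 0 h used all 7 libraries and the genes that averaged 1 TPM or more in either group, and a call also needed a log2 fold change of at least 1 in size. The 0 h library was assumed to vary like the others. Shares within a gene pair were compared by exact permutation. The fits were also run on simulated data, with an outcome not reported here. Those data gave the 0 h library the spread of the other groups, so they cannot check the assumption made for it.

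Depth was estimated from low values and GENCODE M21 exon lengths (53584 symbols), with 98.7 to 99.2% of the tested values within 0.1 of a whole read. In a 2000 bp gene, 1 read was worth 0.0696 to 0.0857 TPM. Intervals and limits from reads cover counting error only. No replicates looked like copies of 1 library: the chi-square per gene averaged 3.11 to 9.89, where counting alone gives 1. Coordinates and transcripts are from GENCODE M21 on GRCm38 (mm10), and promoters from RefSeq on GRCm38.p6. Near-copies were searched with blastn 2.17.0 at 95% identity over at least 100 bases.

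The other motifs searched on both strands of the promoters, besides CCAAT and TTTGAA, were the E2F motif TTTCCCGC with G also allowed at positions 4 and 5 (1.86% of 32851 promoters, no match in the 9 genes), the GATA motif AGATAA with T also allowed first and G last (1 of the 9 genes, 26.5% of all), the GC box GGGCGG (6 of 9, 32.7%), and the MTF1 motif TGCACNC with G also allowed at position 4 (4 of 9, 21.4%). The 10 genes and the lists were chosen with earlier results of these data known. Named genes are the 10 histone genes, and from each list up to 3 called genes (4 for cluster genes) with the largest log2 fold change between DTPA and control and an average of 5 TPM or more in the group with the higher level. The 3 genes nearest in pattern to each of Cenpa, H2afz and H2afx are named too. A few genes that these rules take are left out of the text and are not reported here. The single exceptions within a list, H1f1, H1f4, H2aw, H2bc7, H3c6, Hira, Daxx, Atrx, Atm, Hmga1 and Hmgn2-ps1 were named after their values were seen. H2afb1 matched no row, and Hmgn4 matched the row Hmgn2-ps1. Alternatives were other pseudocounts, filters, scalings and variance models, leaving out each library, a fit of all 7 libraries, a replicate block, and adding the reads of pseudogene copies. That addition and the block in the comparisons with 0 h were chosen after seeing the data.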

Additional observations from a re-analysis of the deposited data

How the results depend on the processing

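Between DTPA and control, Cenpa, H2afz, H2afx, H2afv and H3f3a kept their direction and their call in every alternative run. Their log2 fold changes ranged from -1.15 to -0.97 for Cenpa, -1.12 to -0.95 for H2afz, -0.83 to -0.56 for H2afx, -0.53 to -0.32 for H2afv and -0.48 to -0.37 for H3f3a. The count of histone genes called higher, 1 as reported (H2afj), was 0 with no filter on low values and 0 without the variance trend, and 0 to 1 when each library was left out. The count called lower, 6 as reported, was 5 with no filter, without the variance trend, with median-of-ratios scaling, with quantile normalization and without globin genes, and 5 to 6 when each library was left out. For control against 0 h, the count called higher was 2 with median-of-ratios scaling, with quantile normalization and without globin genes, and 1 to 2 when each library was left out. The count called lower there was 1 with median-of-ratios scaling and without globin genes, and 2 to 3 when each library was left out. For DTPA against 0 h, the count called higher was 1 with median-of-ratios scaling and with quantile normalization. Adding the reads counted to pseudogene copies changed no call. The causes of these shifts were not tested.

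No pairing by replicate number was visible, as deviations of same-numbered DTPA and control libraries correlated at -0.01, 0.024 and -0.01 across genes. Such correlations cannot tell whether same-numbered cultures were grown or processed together. With the replicate block, 1 histone gene was called higher and 5 lower, and H3f3b had an adjusted p of 0.08041 and H3f3c of 0.05944 (limma). In the comparisons with 0 h, where the replicate block was chosen after seeing the data, it gave 0 called higher and 4 lower for DTPA, and 1 higher and 2 lower for control, as reported. In a gene of 2000 bases 1 read was worth 0.0696 to 0.0857 TPM at the estimated depths, so values near 1 TPM rest on few reads.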
